A study of Mus musculus with 18 samples.

Results

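Bone morphogenetic protein (BMP) signaling was followed through 10 genes, namely the ligands Bmp2, Bmp4 and Bmp8b, the receptor Bmpr1a, the signal transducer Smad1, the inhibitory SMADs Smad6 and Smad7 and the target genes Id1, Id2 and Id3. They were selected by gene symbol among the 14804 genes that were listed for at least 1 of 3 mouse stem cell types. The cell types were embryonic stem cells (ESCs, the E14 line), trophoblast stem cells (TSCs) and extra-embryonic endoderm stem (XEN) cells, which serve as in vitro models of the epiblast, trophectoderm and primitive endoderm. All 10 genes were listed for ESCs and TSCs and 8 for XEN cells, where Bmp4 and Bmp8b were not listed and so not analysed. The authors kept only protein-coding genes that exceeded 0.4 CPM in 2 or more of the 6 libraries. RNA of cells kept at 20% O2 (normoxia), or at 2% O2 (hypoxia) for 2 or 7 days, was sequenced in bulk, with 2 biological replicates per condition, 6 libraries per cell type and 18 libraries in all. The ESCs were wild-type, and no genetic alteration is given for the other cell types. ESCs were grown without feeders on gelatin in serum and LIF, TSCs on a layer of feeder fibroblasts in serum with FGF4 and heparin, and XEN cells on gelatin in medium that had partly been conditioned on fibroblasts. Serum and feeder cells can themselves supply BMP ligands.

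BMPs are secreted ligands of the TGFβ family. They bind pairs of type I receptors (such as BMPR1A) and type II receptors, which phosphorylate SMAD1, SMAD5 and SMAD9. These join SMAD4, enter the nucleus and activate target genes, of which the Id genes are the best known. ID proteins lack a DNA-binding domain and sequester bHLH transcription factors, which keeps many progenitors undifferentiated. SMAD6 and SMAD7 are induced by the pathway and block it at the receptor. In ESCs grown in serum and LIF, BMP4 and the Id genes help to maintain self-renewal. In the early embryo, BMP4 and BMP8B from the extra-embryonic ectoderm, the derivative of the trophectoderm from which TSCs can be derived, signal to the epiblast, and BMP2 is made by the visceral endoderm.

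The promoter sequences of Bmp4, Bmp8b and Smad6 are shown. These 3 genes fell from day 2 to day 7 in TSCs, and their windows lie outside exons. Each sequence is the 250 bases before the RefSeq gene start, in build GRCm38.p6, read 5′ to 3′ on the strand of the gene. Capitals mark the core of the hypoxia response element, the motif bound by hypoxia-inducible factors (ACGTG or GCGTG), the GC-rich SMAD elements GGCGCC and GGAGCC and the SMAD4-type element CAGAC, each searched on both strands. The Bmp4 sequence is chr14:46390670-46390919 on the minus strand, that of Bmp8b is chr4:123104911-123105160 on the plus strand and that of Smad6 is chr9:64022060-64022309 on the minus strand.
Bmp4: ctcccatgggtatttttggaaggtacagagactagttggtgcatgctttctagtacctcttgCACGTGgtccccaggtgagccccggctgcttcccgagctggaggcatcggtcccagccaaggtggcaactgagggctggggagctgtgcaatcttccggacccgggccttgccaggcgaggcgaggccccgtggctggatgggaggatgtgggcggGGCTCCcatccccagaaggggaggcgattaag
Bmp8b: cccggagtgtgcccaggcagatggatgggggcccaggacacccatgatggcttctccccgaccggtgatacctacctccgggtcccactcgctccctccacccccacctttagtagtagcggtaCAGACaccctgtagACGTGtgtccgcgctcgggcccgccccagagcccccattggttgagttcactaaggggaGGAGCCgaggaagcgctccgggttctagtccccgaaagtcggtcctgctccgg
Smad6: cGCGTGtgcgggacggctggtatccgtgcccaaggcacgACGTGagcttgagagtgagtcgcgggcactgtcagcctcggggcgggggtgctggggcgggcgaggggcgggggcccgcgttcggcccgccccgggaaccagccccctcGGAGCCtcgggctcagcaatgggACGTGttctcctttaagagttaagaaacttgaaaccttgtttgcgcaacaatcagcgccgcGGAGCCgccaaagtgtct

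ACGTG occurred in all 3 of these promoters and in 16.6% of 32851 RefSeq promoters of the same length. In Bmp4 it was read on both strands at overlapping positions (−188 and −187 from the gene start), in Bmp8b once (−112) and in Smad6 at −211 and −79. GGAGCC was likewise present in the 3 promoters, against 26% of all promoters, and GGCGCC was in none of the 3, against 9.59%. Of the 3, CAGAC was found in Bmp8b alone, against 42.2% of all promoters, and GCGTG in Smad6 alone, against 28.2%. The promoters of Bmpr1a, Id2, Id3 and Smad1 were also searched but are not printed, since their windows overlap annotated exons. None of the 4 held ACGTG, but the other core, GCGTG, was in Id3 and Smad1. GGAGCC was in Id2 and Id3, GGCGCC in Bmpr1a and Id2, and CAGAC in Id3. The 3 printed promoters were chosen by the fall of their genes in these data, so the shares are no test of a motif. Id2 fell in the same comparison and held no ACGTG, and no promoter was matched for Bmp2 and Id1, which also fell. These matches describe the letters of the windows only.

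The libraries held between 35592641 and 75204029 reads on genes, recovered from the expression values as whole numbers. Summed over each list, markers of the 3 cell types were highest in the cell type they name. The sums use deposited TPM, which are reads per kilobase of gene span and add up to 1000000 in each library. Genes of short span therefore weigh more in every sum of markers given here. Over 8 ESC markers, which included Pou5f1 and Nanog, expression was 12337 to 15881 TPM in ESCs and at most 1354 TPM in the other cell types. The 8 XEN markers summed to 2416 to 2910 TPM in XEN cells against at most 25.2 TPM elsewhere. Of the ESC markers, Klf4 was higher in XEN cells (623 to 1193 TPM) than in ESCs (326 to 442 TPM). The 6 TSC markers summed to 701 to 1291 TPM in TSCs and at most 147 TPM elsewhere. Of 12 hypoxia response genes, 4 rose in TSCs on day 2, and on day 7 relative to normoxia 0 were called by limma or voom and 5 had an unadjusted p under 0.05. For Slc2a3, a glucose transporter gene, the TSC replicates were at 11.2 and 19.4 TPM in normoxia, 220.4 and 140.4 TPM on day 2 and 19.8 and 19.6 TPM on day 7. Bnip3, a mitophagy gene, was at 15.7 and 16.2 TPM in normoxia, 86.5 and 93.2 TPM on day 2 and 25.0 and 26.8 TPM on day 7. The 12 genes summed to 4526 and 4284 TPM in normoxia, 9278.5 and 8845 TPM on day 2 and 5711 and 6519 TPM on day 7, and 7 of the 12 fell from day 2 to day 7. Their part in the values of the BMP genes was not tested. In ESCs, limma called 0 of the 12 on day 2 and 2, both higher, on day 7. At an unadjusted p under 0.05 there were 9 on day 2 and 9 on day 7. The ESC sums were 4370 and 4364 TPM in normoxia, 7381.5 and 10180 TPM on day 2 and 9454 and 7169 TPM on day 7. In XEN cells, limma called 0 of 10 genes tested on day 2 and 1, which rose, on day 7. At an unadjusted p under 0.05 there were 5 on day 2 and 5 on day 7.

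Genes can be compared with one another only per length of transcript, so TPM was recomputed with exon length for the levels in normoxia. The tables of the cell types were normalized separately and no test was made between them. In ESCs, Id1 stood above all other members at 288 ± 3.10 TPM (SD, n = 2). Id3 (97.4 ± 22.9), Smad7 (78.0 ± 17.6) and Id2 (73.6 ± 0.771) followed, where Smad7 overlapped both others and Id3 lay above Id2 without overlap. Bmpr1a (61.2 ± 4.30) and Bmp4 (59.5 ± 12.3) also overlapped, and Smad1 (12.5 ± 2.23), Smad6 (10.3 ± 0.0879), Bmp8b (2.67 ± 0.851) and Bmp2 (0.409 ± 0.0906) came last, in that order without overlap. Among the ligands Bmp2, Bmp4 and Bmp8b, the highest in ESCs was thus Bmp4.

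In TSCs, Id2 (296 ± 7.70 TPM per exon length) and Smad7 (283 ± 42.3) led and overlapped, followed by the ligands Bmp8b (222 ± 4.34) and Bmp4 (116 ± 24.6) and by Bmpr1a (90.4 ± 2.84), which were separated from their neighbors. Smad6 (56.9 ± 22.0), Id1 (49.1 ± 19.9), Id3 (31.3 ± 19.6) and Smad1 (21.6 ± 0.763) each overlapped the next, and Bmp2 was lowest (6.65 ± 0.164). In XEN cells, Bmpr1a (96.4 ± 12.6) and the ligand Bmp2 (70.2 ± 14.3) led without overlap. Smad7 (36.9 ± 19.99) and Id1 (30.7 ± 16.7) overlapped, as did Id3 (8.44 ± 7.77), Id2 (7.42 ± 7.63) and Smad6 (2.53 ± 1.04), and Smad1 was lowest at 0.850 ± 0.127. Among the 3 ligands, the highest was thus Bmp4 in ESCs and Bmp8b in TSCs, while only Bmp2 was listed for XEN cells. Reads of Bmp8b may be shared with its close paralog Bmp8a, and those of Bmp4, Bmp8b and Bmpr1a with genes on the opposite strand that overlap them (Gm15217, Ppie and Gm17110 among them), since the strand setting of the counting is not given in the sources used here.

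**Figure D1:**
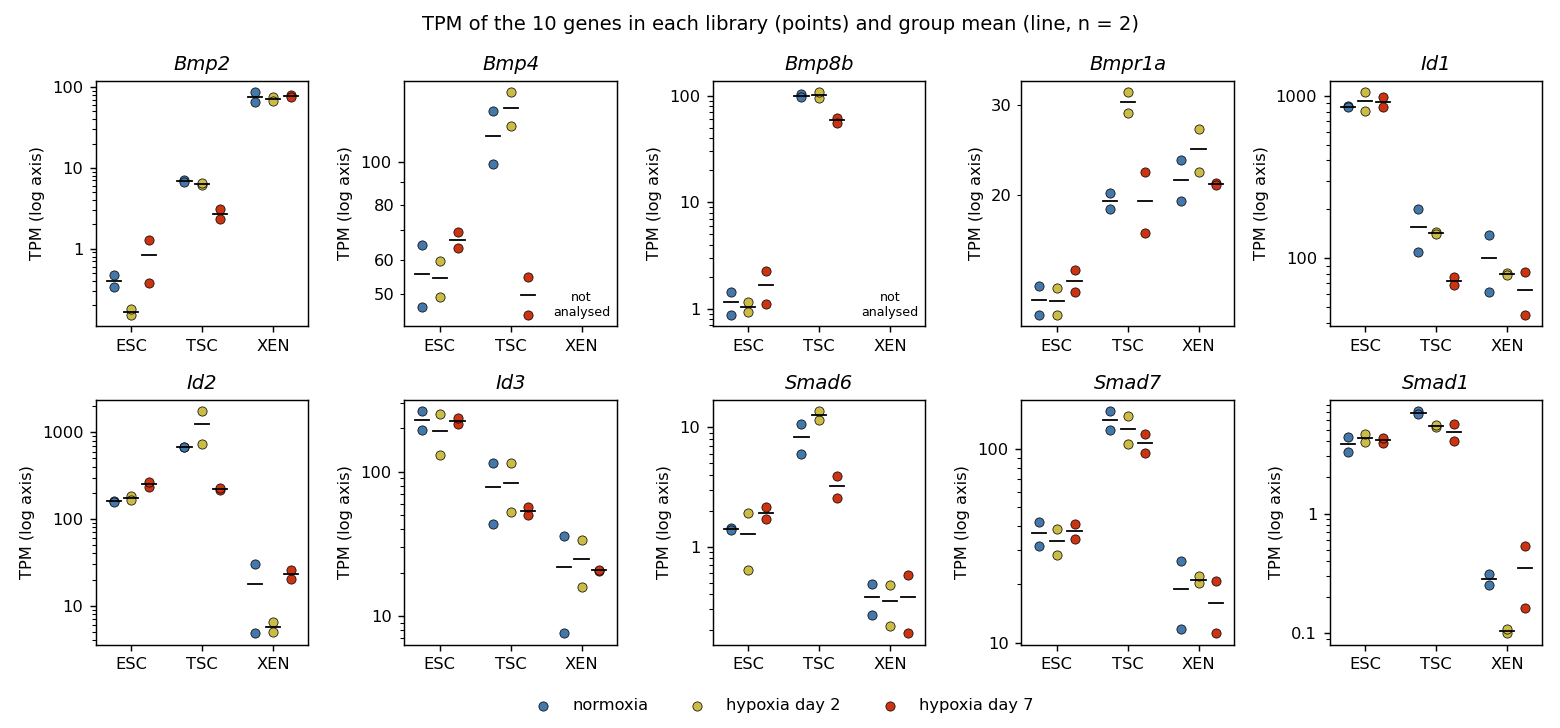
Deposited TPM (log axis, a different range in each panel) of the 10 genes in ESCs, TSCs and XEN cells, with a point per library and a line at the mean of each condition (n = 2). In TSCs the day 7 points of Bmp2, Bmp4, Bmp8b, Id1, Id2 and Smad6 lie below all normoxic and day 2 points, whereas in ESCs and XEN cells the conditions mostly overlap.

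To determine how the pathway behaved in hypoxia, each cell type was tested on the deposited TPM with limma. Differentially expressed (DE) genes are those for which the Benjamini-Hochberg adjusted p, taken over every gene tested, was no more than 0.1 and the fold change exceeded 1.5. Fold changes are on the log2 scale of TPM + 0.5, which understates the change of genes with low TPM. Deposited TPM of different genes cannot be compared, because they had been scaled by the whole gene span, but the libraries of a gene can.

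In TSCs, 6 of the 10 genes fell between day 2 and day 7 of hypoxia and 0 rose. These were the 3 ligands Bmp2, Bmp4 and Bmp8b, the inhibitory SMAD gene Smad6 and the targets Id1 and Id2. Over all 12481 genes tested in TSCs, 16.2% were DE in this comparison and 13.8% were DE and lower. Both day 7 libraries were below both day 2 libraries in 7 of the 10 members and in 44.9% of all genes. The comparison was itself tilted towards lower values, with 296 genes higher and 1723 lower, but 738 higher and 968 lower when libraries were scaled by the median ratio of genes, which moved the median log2 fold change of all genes from −0.24 to 0.02. The median over the 10 members was −0.88.

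Bmp4 (chr14:46383520-46390669, minus strand), which encodes the ligand that the extra-embryonic ectoderm sends to the epiblast, was at 99.0 and 131 TPM in normoxia, 121 and 144 TPM on day 2 and 44.9 and 54.8 TPM on day 7. Both day 7 libraries were below the other 4. Bmp4 fell by 1.40 on the log2 scale from day 2 to day 7 (SE 0.219, adjusted p = 0.0215), a 2.64-fold decrease. Bmp8b (chr4:123105165-123132099, plus strand), which cooperates with Bmp4 in the specification of primordial germ cells, was at 103 and 98.1 TPM in normoxia, 95.2 and 108 TPM on day 2 and 61.9 and 55.7 TPM on day 7. It did not differ between normoxia and day 2 beyond the replicates, and fell by 0.78 from day 2 to day 7 (SE 0.175, adjusted p = 0.0446). Bmp2 (chr2:133552159-133562885, plus strand), a ligand close in sequence to Bmp4, was the least expressed of the 3 in TSCs, at 7.13 and 6.73 TPM in normoxia, 6.11 and 6.50 TPM on day 2 and 3.07 and 2.34 TPM on day 7. It fell by 1.09 (SE 0.245, adjusted p = 0.0447).

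The receptor and the transducer were not called. Bmpr1a (chr14:34410734-34503341, minus strand), the type I receptor that binds BMP2 and BMP4, was at 20.2 and 18.8 TPM in normoxia, 28.9 and 31.8 TPM on day 2 and 22.2 and 16.9 TPM on day 7. The day 2 libraries were the highest pair, and day 7 overlapped normoxia. The log2 differences were 0.62 for day 2 against normoxia (SE 0.216, adjusted p = 0.314) and −0.63 for day 7 against day 2 (adjusted p = 0.116), neither of which passed the threshold. Smad1 (chr8:79338395-79399518, minus strand) ranged from 4.04 to 7.22 TPM over the 6 libraries, with day 7 overlapping day 2.

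Of the inhibitory SMADs, Smad6 was called and Smad7 was not. Smad6 (chr9:63953076-64022059, minus strand), which acts mainly against BMP receptors, was at 10.7 and 5.97 TPM in normoxia, 11.4 and 13.8 TPM on day 2 and 3.88 and 2.56 TPM on day 7. Its day 7 libraries were below the other 4, and the decrease from day 2 to day 7 was 3.56-fold (log2 fold change −1.83, SE 0.342, adjusted p = 0.031). Smad7, which acts on both the BMP and the TGFβ branches, was at 158 and 125 TPM in normoxia, 107 and 149 TPM on day 2 and 120.3 and 95.9 TPM on day 7, and day 7 overlapped day 2. The difference in response between Smad6 and Smad7 was not tested.

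Of the target genes, Id2 (chr12:25093799-25097140, minus strand), an inhibitor of bHLH factors with roles in trophoblast progenitors, was at 673 and 682 TPM in normoxia, 1775 and 730.3 TPM on day 2 and 219 and 229 TPM on day 7. The normoxic replicates were nearly equal, as were those of day 7, and the spread lay in day 2, where replicate 1 was far above replicate 2. Id2 fell 5.08-fold from day 2 to day 7 (log2 fold change −2.35, SE 0.378, adjusted p = 0.0229). Without day 2 replicate 1 the log2 fold change was −1.70 (adjusted p = 0.0944), and without day 2 replicate 2 it was −2.99 (adjusted p = 0.0305), while Id2 was not called without day 7 replicate 1 (adjusted p = 0.113) or replicate 2 (adjusted p = 0.184). Id1 (chr2:152736251-152737410, plus strand), the most widely used readout of BMP signaling, was at 201 and 109 TPM in normoxia, 146 and 140.3 TPM on day 2 and 76.8 and 68.2 TPM on day 7. It fell by 0.98 (SE 0.288, adjusted p = 0.0838). Id3 (chr4:136143497-136145755, plus strand), another direct target, was at 114 and 43.2 TPM in normoxia, 52.1 and 116 TPM on day 2 and 49.8 and 56.8 TPM on day 7. For Id3 the replicates of normoxia and of day 2 lay further apart than the means of any conditions, and it was not called.

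These calls depended on the number of libraries. Without TSC day 7 replicate 1 or without day 7 replicate 2, 0 of the 6 genes were called, without day 2 replicate 1 only Id2 was, and without day 2 replicate 2 Bmp4, Id2 and Smad6 were. All 6 remained lower in each of these fits, while the DE genes among all tested went from 2019 to between 0 and 1519. Bmp8b and Id1 were not called with median-ratio scaling (adjusted p = 0.119 and 0.155), and Id1 was not called with voom on recovered reads (adjusted p = 0.155) or without a mean-variance trend (adjusted p = 0.105).

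**Figure D2:**
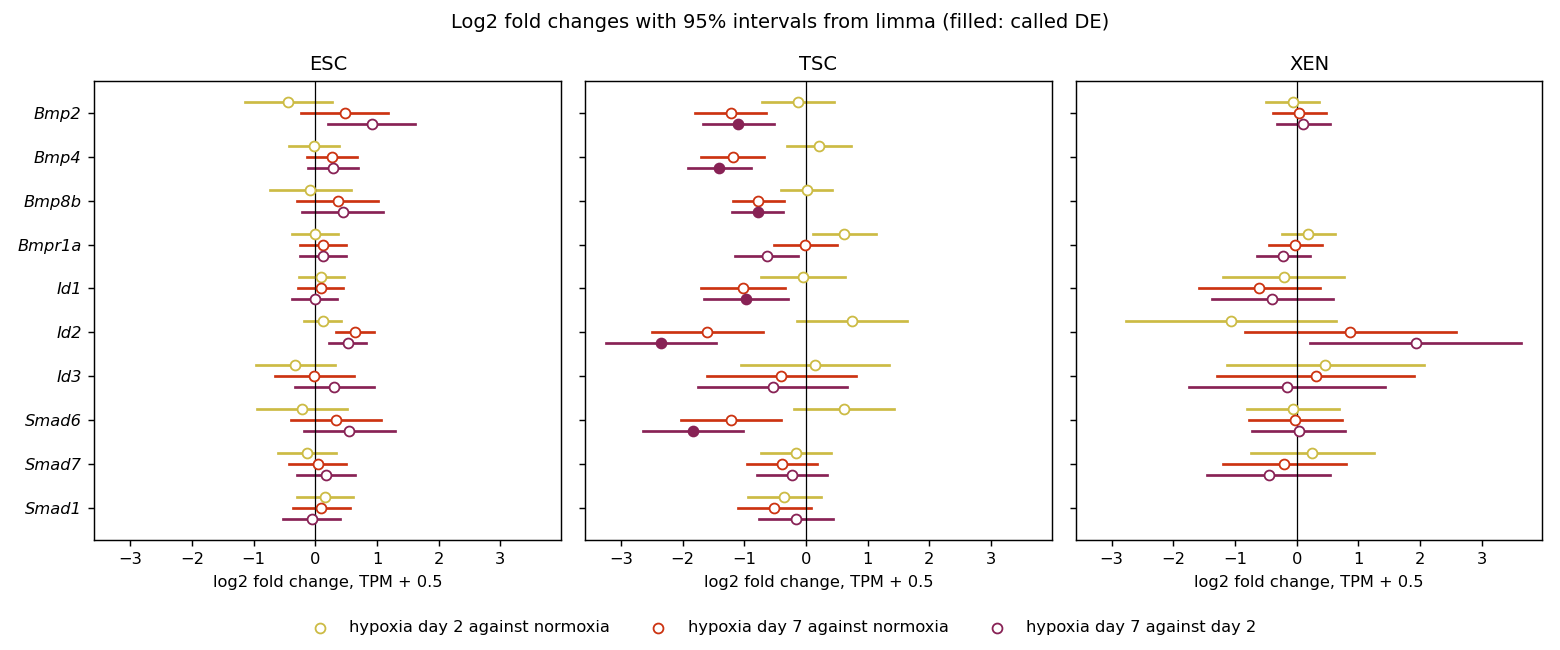
Log2 fold changes (TPM + 0.5) of the 10 genes in each cell type for the 3 comparisons, with points at the limma estimate, lines for the 95% interval and filled points for DE genes. The filled points are the 6 TSC genes that fell from day 2 to day 7, from −0.78 for Bmp8b to −2.35 for Id2, and the widest intervals are those of Id2 and Id3 in XEN cells.

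Relative to normoxia, 0 of the 10 genes were DE in TSCs on day 7 in limma or in voom, against 0.385% of all genes. In limma, 6 had an unadjusted p under 0.05, against 1298 of all 12481 genes tested. In 8 of the 10 genes both day 7 libraries were below both normoxic libraries, against 32.3% of all genes tested. The same 6 genes as above were lower by more than 1.5-fold, against 12.7% of all genes, with log2 fold changes of −1.22 for Bmp2 (adjusted p = 0.166), −1.19 for Bmp4 (adjusted p = 0.142), −0.77 for Bmp8b (adjusted p = 0.207), −1.22 for Smad6 (adjusted p = 0.288), −1.03 for Id1 (adjusted p = 0.288) and −1.60 for Id2 (adjusted p = 0.227). The median was −0.90 over the members and −0.18 over all genes tested. The comparisons with day 2 and with normoxia share the day 7 libraries, so the agreement in direction is not independent. Between day 2 and normoxia, 0 of the 10 genes were DE in limma or in voom, against 0.2% of all genes. In limma, 1 (Bmpr1a) had an unadjusted p under 0.05, against 1639 of all 12481 genes tested. Bmpr1a, Id2 and Smad6 were higher on day 2 without overlap, against 30.6% of all genes, and Bmp2 and Smad1 were lower, against 16.9%. The log2 fold changes of Id2 and Smad6 were 0.75 (adjusted p = 0.447) and 0.62 (adjusted p = 0.483), and these 3 genes were past 1.5-fold, against 12.6% of all genes. Without day 2 replicate 1, the value of Id2 was 0.11 (adjusted p = 1).

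The TSC libraries differed in fibroblast transcripts, which feeder cells express. The sum of 12 fibroblast markers was 1942 and 279 TPM in normoxia, 219 and 996 TPM on day 2 and 459.5 and 275 TPM on day 7. All 12 markers were detected, and Col1a1, which encodes a main fibroblast collagen, reached 856 TPM in normoxia replicate 1 and 503 TPM in day 2 replicate 2, against 81.6 to 137 TPM in the other 4 libraries. These were the libraries with the highest Id3. Of the 12 markers, 0 were called between conditions by limma or voom and 0 had an unadjusted p under 0.05. With replicates this far apart, such a test could hardly call a difference between conditions. The median log2 fold change of the 12 relative to normoxia was −0.58 on day 2 and −0.59 on day 7. Without both libraries, 5 of the 6 genes were still called from day 2 to day 7, the exception being Bmp8b (adjusted p = 0.144), and Bmp4 (log2 fold change −1.39, adjusted p = 0.00403) and Id2 (−1.61, adjusted p = 3.97e-05) were called on day 7 relative to normoxia. On day 2 relative to normoxia the log2 fold change of Id2 was then 1.38 (adjusted p = 0.00464), which rests on day 2 replicate 1, and without that library it was 0.11 (adjusted p = 1). This fit leaves 1 library in normoxia and 1 on day 2, which are assumed to vary like those of day 7, and over all genes it called 756 on day 2, 390 on day 7 relative to normoxia and 3046 from day 2 to day 7, against 25, 48 and 2019 with all libraries. In bulk RNA, fewer cells of a type and less RNA per cell cannot be told apart.

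**Figure D3:**
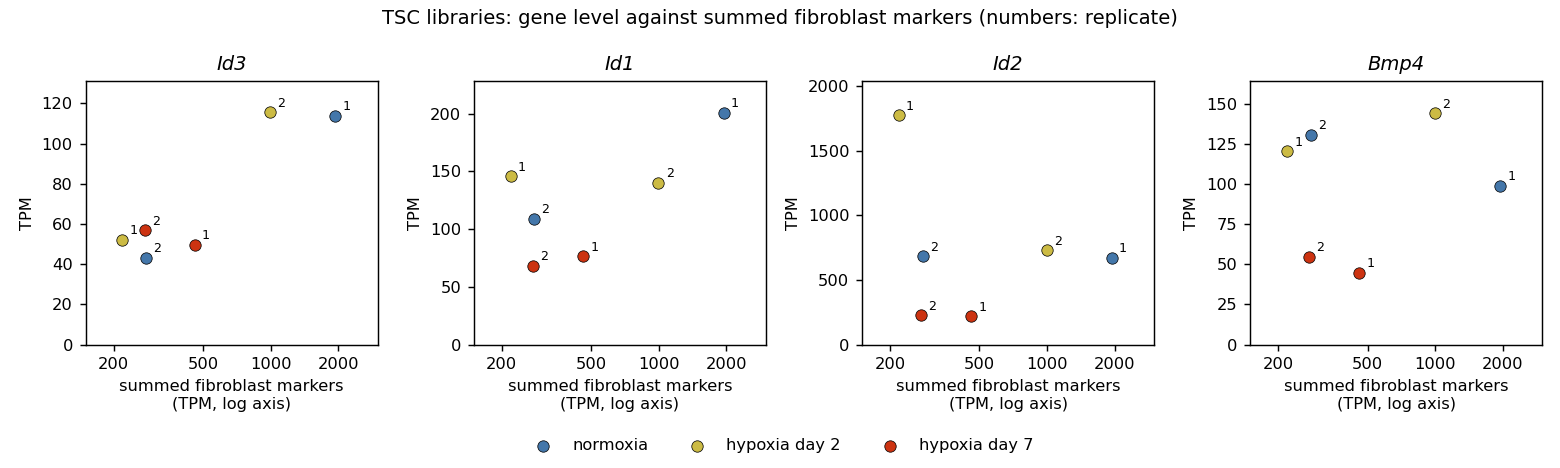
Deposited TPM of Id3, Id1, Id2 and Bmp4 in the 6 TSC libraries against the summed TPM of 12 fibroblast markers (log axis), with the replicate number beside each point. The libraries with the highest marker sums, 1942 and 996 TPM, have the highest Id3, whereas Id2 is highest at the lowest marker sum. The day 7 libraries, at marker sums of 459.5 and 275 TPM, are the lowest in Id1, Id2 and Bmp4. The part of feeder cells in these values was not tested.

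Some markers of the TSC state moved in the same comparison. Of 6 TSC markers, 4 fell from day 2 to day 7, against 13.8% of all genes. On day 7 relative to normoxia 1 fell, against 43 of all 12481 genes. Tfap2c went the other way without being called. It was at 396 and 484 TPM in normoxia, 383 and 404 TPM on day 2 and 488 and 463 TPM on day 7. Cdx2, a transcription factor of the trophectoderm, was at 140 and 125 TPM in normoxia, 88.0 and 169 TPM on day 2 and 40.3 and 35.1 TPM on day 7. Eomes was at 439 and 364 TPM in normoxia, 271 and 469 TPM on day 2 and 142 and 104 TPM on day 7. Of 7 markers of differentiated trophoblast, 1 rose and 2 fell from day 2 to day 7, and their sum, mostly Hand1, was 8666 and 14454 TPM in normoxia, 8603 and 7280 TPM on day 2 and 14783 and 12922 TPM on day 7. The part of these shifts in the values of the BMP genes was not tested.

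The rest of the pathway in TSCs was examined in 6 lists that hold 54 other genes, of which 36 were tested. From day 2 to day 7, 8 of the 36 fell and 3 rose, against 1723 and 296 of all 12481 genes. The median log2 fold change of the 36 was −0.16, close to that of all genes. Among the ligands, Gdf6 and Bmp7 also fell, so that 5 of the 6 ligand genes tested were DE and lower, against 13.8% of all genes. These 5 include the members Bmp2, Bmp4 and Bmp8b, and Bmp8a was not called. Gdf6, a BMP family ligand, was at 21.7 and 21.9 TPM in normoxia, 31.2 and 27.3 TPM on day 2 and 3.39 and 2.52 TPM on day 7. It was the only pathway gene called on day 7 relative to normoxia (log2 fold change −2.70, SE 0.231, adjusted p = 0.0185), and it fell by 3.11 from day 2 (adjusted p = 0.00579). Relative to normoxia it was not called without day 7 replicate 1 (adjusted p = 0.195) or replicate 2 (adjusted p = 0.348), and relative to day 2 it was not called without day 7 replicate 2 (adjusted p = 0.114). Bmp7 was at 1.46 and 2.64 TPM in normoxia, 5.78 and 3.83 TPM on day 2 and 0.590 and 0.752 TPM on day 7 (log2 fold change −2.16 from day 2 to day 7, adjusted p = 0.0214).

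Of 8 target transcription factors tested, Msx1 fell together with Id1 and Id2. Msx1, a homeobox gene induced by BMP in many tissues, was at 21.9 and 12.2 TPM in normoxia, 18.3 and 18.8 TPM on day 2 and 4.89 and 1.30 TPM on day 7, and fell by 2.61 from day 2 (adjusted p = 0.035). Its day 7 libraries were also below normoxia (log2 fold change −2.44, adjusted p = 0.179). The other genes that fell were Acvr2b, Eng, Smad4, Bambi and Chrd, which are named because they complete the count. Eng and Acvr2b encode a co-receptor and a type II receptor, Smad4 the common SMAD, Bambi a pseudoreceptor that inhibits signaling and Chrd the antagonist chordin. With median-ratio scaling, 9 of the 11 genes were called, the exceptions being Acvr2b and Smad4 (adjusted p = 0.225 and 0.182), and all 11 kept their direction.

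The 3 genes that rose were Nbl1 and Grem1, which encode secreted BMP antagonists of the DAN family, and Acvrl1, a type I receptor for BMP9 and BMP10. Nbl1 was at 160 and 99.0 TPM in normoxia, 51.4 and 93.5 TPM on day 2 and 277 and 241 TPM on day 7 (log2 fold change 1.89 from day 2 to day 7, adjusted p = 0.0284). Grem1 was at 44.4 and 19.4 TPM in normoxia, 6.33 and 10.9 TPM on day 2 and 29.4 and 23.1 TPM on day 7 (1.59, adjusted p = 0.0676). Day 7 was within the normoxic range for Grem1 and above it for Nbl1. Acvrl1 was at 51.7 and 45.8 TPM in normoxia, 31.0 and 45.5 TPM on day 2 and 88.0 and 97.5 TPM on day 7 (1.29, adjusted p = 0.0284). Fst, which encodes the activin and BMP antagonist follistatin, was lower on day 7 than in normoxia without passing the test (43.6 and 14.02 against 8.11 and 8.35 TPM, log2 fold change −1.54, adjusted p = 0.578). Its highest values, in normoxia replicate 1 and day 2 replicate 2 (46.4 TPM), were in the libraries highest in fibroblast markers. Bmp7, Nbl1, Grem1 and Acvrl1 were not called without day 2 replicate 1 (adjusted p = 0.153, 0.162, 0.344 and 0.17) or without either day 7 library (0.107 to 0.25), and Msx1 was not called without day 2 replicate 1 (adjusted p = 0.196) or day 7 replicate 2 (log2 fold change −1.82, adjusted p = 0.183).

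**Figure D4:**
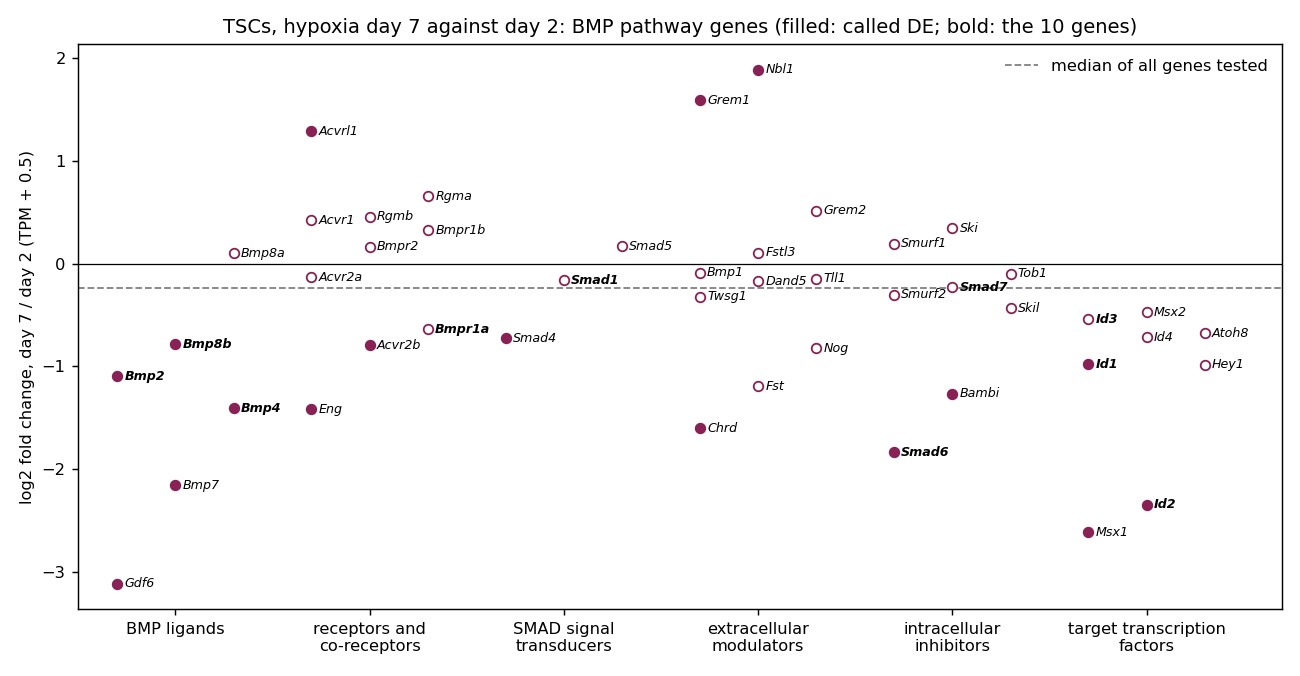
Log2 fold change (TPM + 0.5) of BMP pathway genes tested in TSCs from day 2 to day 7 of hypoxia, grouped by role, with the 10 members in bold, filled points for DE genes and a dashed line at the median of all genes tested (−0.24). Among the ligands 5 of 6 are filled and lower, against 13.8% of all genes, and the filled points above 0 are Nbl1, Grem1 and Acvrl1.

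In ESCs, 0 of the 10 genes were DE in any of the 3 comparisons, in limma or in voom. Over all 12271 genes tested, 0 genes were DE on day 2 (620 had an unadjusted p under 0.05, and voom also called 0), 0.758% on day 7 and 0.179% from day 2 to day 7. At an unadjusted p under 0.05, the members counted 0, 1 (Id2) and 2 (Id2 and Bmp2) in these comparisons. All genes tested counted 620, 986 and 523.

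The value that stood out was Id2. It was at 163 and 156 TPM in normoxia, 184 and 164 TPM on day 2 and 231 and 271 TPM on day 7. Day 7 libraries were above the other 4, and the day 2 libraries were above normoxia by less than 1.5-fold. The log2 fold change was 0.64 on day 7 relative to normoxia (SE 0.133, adjusted p = 0.119), or 1.56-fold, and 0.53 relative to day 2. Id2 was called on day 7 when TPM was computed with exon length (adjusted p = 0.0908) or when only the 4 libraries of the comparison were fitted (adjusted p = 0.0397). Id2 and Smad6 were the 2 members that were higher on day 7 than in normoxia without overlap, against 23% of all genes.

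Id1 and Id3 were not called. Id1 was at 864 and 853 TPM in normoxia, 1053 and 803 TPM on day 2 and 979 and 850.1 TPM on day 7, and the conditions overlapped. Id3 ranged from 129.8 TPM to 264 TPM over the 6 libraries, with the lowest value in day 2 replicate 2. Smad6 was also lowest in that library, at 0.636 TPM, against 1.39 to 2.14 TPM in the other 5. Without day 2 replicate 1, Id3 was called lower on day 2 and Smad6 was called higher from day 2 to day 7, calls that rest on day 2 replicate 2 alone.

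The ligand Bmp4 ranged from 46.8 to 69.3 TPM in ESCs. Its day 7 libraries (69.3 and 63.8 TPM) were above those of day 2 (59.6 and 49.3 TPM) and overlapped normoxia (64.7 and 46.8 TPM). Bmp2 was near the limit of the filter, with 8 to 66 reads per library. It was at 0.473 and 0.335 TPM in normoxia, 0.152 and 0.180 TPM on day 2 and 1.29 and 0.378 TPM on day 7 (log2 fold change 0.91 from day 2 to day 7, adjusted p = 0.86). Bmp2, Bmp4 and Id2 were higher on day 7 than on day 2 without overlap, against 15.2% of all genes. Bmp8b (0.875 to 2.24 TPM), Bmpr1a (11.7 to 14.3 TPM), Smad1 (3.27 to 4.59 TPM) and Smad7 (28.4 to 42.2 TPM) overlapped between conditions in the comparisons with normoxia.

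Of 31 other pathway genes tested in ESCs, 0 were called in any comparison with limma or voom, and 2 to 4 per comparison had an unadjusted p under 0.05. The 3 with the largest differences between day 7 and normoxia without overlap were low in expression. Msx1 was at 2.16 and 4.71 TPM in normoxia and 6.41 and 6.93 TPM on day 7 (log2 fold change 0.94, adjusted p = 0.508). Bmp1, which encodes a protease that cleaves chordin, was at 1.08 and 0.727 TPM in normoxia and 2.95 and 1.51 TPM on day 7 (0.92, adjusted p = 0.443), and Fstl3, a follistatin-like gene, at 0.237 and 0.963 TPM in normoxia and 2.00 and 0.974 TPM on day 7 (0.89, adjusted p = 0.6).

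In XEN cells, 7 of the 8 members present passed the filter, and 0 of the 7 were DE in any comparison, in limma or in voom. Of all 10894 genes tested, 0 were DE on day 2 (846 had an unadjusted p under 0.05, and voom also called 0), 0.11% on day 7 and 0.0367% from day 2 to day 7. At an unadjusted p under 0.05, the members counted 0, 0 and 1 (Id2), and all genes tested counted 846, 982 and 1295.

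The ligand Bmp2 was at 64.6 and 86.3 TPM in normoxia, 75.2 and 67.5 TPM on day 2 and 78.5 and 75.6 TPM on day 7. Its 6 libraries thus lay within a narrow range, and on day 7 it was above day 2 but within the range of normoxia. Bmpr1a ranged from 19.5 to 26.9 TPM. Smad1 was below the filter, at 0.312 and 0.253 TPM in normoxia, 0.0999 and 0.108 TPM on day 2 and 0.538 and 0.163 TPM on day 7, and was not tested. Smad6 ranged from 0.188 to 0.578 TPM and Smad7 from 11.2 to 26.4 TPM, with all conditions overlapping.

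The Id genes of XEN cells varied mainly between replicates. Id2 was at 4.79 and 30.3 TPM in normoxia, 4.91 and 6.42 TPM on day 2 and 20.6 and 25.5 TPM on day 7. The normoxic replicates were the lowest and the highest of the 6 libraries, so that the sign of the difference from normoxia depended on which of them was used. The log2 fold change was −1.06 on day 2 (adjusted p = 0.755) and 0.87 on day 7 (adjusted p = 0.759) relative to normoxia, and without normoxia replicate 2 and replicate 1 these became 0.21 and −0.40, respectively. From day 2 to day 7, Id2 differed by 1.93 (SE 0.719, adjusted p = 0.409). This difference does not use normoxia, but its SE and adjusted p share the spread of all 6 libraries, normoxia included. With only the 4 libraries of this comparison fitted, the limma adjusted p of Id2 was 0.032. That fit called 37 of all genes, against 4 with all libraries. Id1 was at 138 and 61.4 TPM in normoxia, 80.5 and 78.5 TPM on day 2 and 81.9 and 44.7 TPM on day 7, with a log2 fold change of −0.60 on day 7 relative to normoxia (adjusted p = 0.709). Id3 was at 35.9 and 7.59 TPM in normoxia, 15.9 and 33.7 TPM on day 2 and 20.7 and 20.9 TPM on day 7. In normoxia, replicate 1 was the higher in Id1, Id3 and Smad7 and the lower in Id2. From day 2 to day 7, Bmp2 and Id2 were higher and Bmpr1a was lower without overlap, against 21.7% and 25.9% of all genes in the respective directions.

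Of 31 other pathway genes tested in XEN cells, 0 were called in any comparison with limma or voom, and 4 to 7 per comparison had an unadjusted p under 0.05. Chrd was at 10.8 and 9.75 TPM in normoxia, 4.04 and 4.65 TPM on day 2 and 4.15 and 4.97 TPM on day 7 (log2 fold change −1.10 on day 7, adjusted p = 0.197), with both hypoxic time points below normoxia. Fstl3 was at 4.71 and 5.84 TPM in normoxia and 17.0 and 9.59 TPM on day 7 (1.21, adjusted p = 0.364), and Tob1, which encodes a repressor of SMAD signaling, at 306 and 162 TPM in normoxia and 115 and 146 TPM on day 7 (−0.78, adjusted p = 0.573). The antagonists Nog and Fst, chosen after their values were seen, were at 165 to 271 and 408 to 894 TPM per exon length over the 6 libraries of XEN cells.

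Finally, the genes with the pattern most like Id1 were ranked by Pearson's r over the 18 libraries after the mean of each cell type was subtracted from log2 TPM. Among 10080 genes, the 5 highest were Ndfip2 (r = 0.927), Unc5b (0.897), C1galt1c1 (0.887), Etv4 (0.881) and Zfp623 (0.866). Within ESCs alone their r with Id1 ranged from 0.0837 to 0.554, within TSCs from 0.885 to 0.992 and within XEN cells from 0.844 to 0.951. Among the members, Smad7 ranked 230th (r = 0.69) and Id2 6797th (r = 0.0511). Id2 followed Id1 within TSCs (r = 0.774) and ran opposite to it within XEN cells (r = −0.73). Each of these values within a cell type rests on 6 libraries, which share their processing and depth across genes.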

How the data were processed

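RNA of the 3 cell types came from normoxic cultures and from cultures kept in hypoxia for 2 or 7 days (2 biological replicates each). Columns headed day 0 were read as normoxia by elimination. According to the submitters' processing notes and the study's methods, the authors trimmed reads with cutadapt 2.4, aligned them to mm10 with STAR 2.7.5a, used StringTie 2.0.6 and counted reads with featureCounts. With edgeR 3.26.8 the authors dropped genes that did not exceed 0.4 CPM in 2 or more of the 6 libraries, and then retained those coding for proteins. The authors deposited TPM, in a table for each cell type. These TPM had been divided by the gene span, introns included. With that length, 98.7% to 98.9% of values were whole reads (within 0.05), against 9.52% to 10.3% with exon length. Span was removed for levels set between genes. Introns in the span alter no fold change within a gene, apart from the weight each gene has in the total.

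Genes that exceeded 0.4 TPM in 2 or more of the 6 libraries were tested with limma 3.58.1 (R 4.3.3, mean-variance trend) on log2(TPM + 0.5), with the 6 libraries of a cell type in 1 model. The count test on recovered reads was voom. On simulated libraries with a set spread (dispersion 0.01 or 0.05), 97% to 99.5% of 200 well-covered genes changed 4-fold were found. Up to 21 other genes were called. Smaller changes and wider spreads were not simulated, so these shares do not give the power for the members. With 2 against 2 libraries, an exact permutation test cannot go below 0.333 and was not used. Members, gene lists and tests were chosen with earlier results of these data known. Named genes were the members, DE genes of the pathway lists (up to 3 per direction) and up to 3 pathway genes per cell type past 1.5-fold between day 7 and normoxia without overlap. Promoters came from RefSeq (GRCm38.p6, 7 of 10 members matched) and gene positions from a GENCODE annotation of GRCm38. Same-numbered replicates did not deviate together (r of −0.46 to 0.27 between conditions), so they were not paired. Alternatives were other pseudocounts, filters and scalings, a replicate block, voom, exon length, fits of 4 libraries, stricter thresholds and leaving out libraries. The precision of each value is limited by 2 replicates and by its reads, of which Bmp2 in ESCs had 8 to 66.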

Additional observations from a re-analysis of the deposited data

Results flagged for a closer look

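For 4 of the genes, all libraries of one cell type moved one way and all of another the opposite way under the same contrast. These differences between cell types were not tested, because the tables were normalized separately. The share of all genes with such opposite directions was not computed. Without overlap, 23% of all genes in ESCs were higher on day 7 than in normoxia, and 32.3% in TSCs were lower. From day 2 to day 7, 15.2% in ESCs and 21.7% in XEN cells were higher, and 44.9% in TSCs were lower. On day 7 relative to normoxia, the log2 fold change of Id2 was 0.64 in ESCs and −1.60 in TSCs, and that of Smad6 was 0.34 in ESCs and −1.22 in TSCs. From day 2 to day 7, Id2 was at 0.53 in ESCs and 1.93 in XEN cells against −2.35 in TSCs. In the same comparison Bmp4 was at 0.29 in ESCs and −1.40 in TSCs, and Bmp2 at 0.91 in ESCs and 0.11 in XEN cells against −1.09 in TSCs. The TSC values from day 2 to day 7 were called DE and the others in this paragraph were not. Under 1.5-fold were the ESC values of Smad6 on day 7 and of Id2 and Bmp4 from day 2 to day 7, and the XEN value of Bmp2. The comparisons share the day 7 libraries of each cell type.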

How the results depend on the processing

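The 37 values followed under the alternatives comprised the 22 member values past 1.5-fold and 15 values of other pathway genes. All kept their sign under every alternative except Id2 in XEN cells. Leaving out 1 library at a time, its log2 fold change ranged from −2.33 to 0.21 on day 2 and from −0.40 to 2.14 on day 7 relative to normoxia, according to which normoxic library was used. Of the 59 member values under 1.5-fold, 41 changed sign under at least 1 alternative. Where a direction is given for a value of this size, it describes the order of the libraries only. The count of members called in TSCs from day 2 to day 7, 6 with all libraries, ranged from 0 to 3 when 1 library was left out. In the same way it ranged from 0 to 1 for the day 7 against normoxia comparison in TSCs, where Id1 was called without normoxia replicate 2 (log2 fold change −1.47, adjusted p = 0.0674), for ESCs on day 2 and from day 2 to day 7, and for XEN cells on day 2 and on day 7 relative to normoxia, where the gene called was Id2. With only the 4 libraries of a comparison fitted, 1 member (Id2) was called on day 7 relative to normoxia in ESCs and in TSCs (adjusted p = 0.0736) and 1 (Id2) from day 2 to day 7 in XEN cells (adjusted p = 0.032). With exon length, 1 member was called in ESCs on day 7. Without TSC normoxia replicate 1 and day 2 replicate 2, a choice made after seeing the data, 1 member was called in TSCs on day 2 and 2 on day 7 relative to normoxia, and 5 between the hypoxic time points, in a fit that called 756, 390 and 3046 of all genes (25, 48 and 2019 with all libraries).

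With the replicate number as a block, the count of members called from day 2 to day 7 in TSCs was 6, and no call among the members or named genes changed. Among all genes tested, the block changed the number of DE genes on day 7 relative to normoxia to 18 (93 without it) in ESCs, 13 (48 without it) in TSCs and 43 (12 without it) in XEN cells, that on day 2 in TSCs to 3 (25 without it) and that between the hypoxic time points in ESCs to 6 (22 without it). A crossed pairing, added after seeing the data, gave 326 DE genes in TSCs on day 2, 60 in ESCs and 1 in XEN cells from day 2 to day 7, and 0 members in each. Limits of depth apply to Bmp2 in ESCs and to Smad6 and Smad1 in XEN cells, with under 1 TPM in most libraries.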
